A study of Mus musculus with 2 samples.

Results

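Antigen presentation in lymph-node endothelium was followed through 10 genes, taken by symbol from the 32285 genes counted in both libraries. They comprise the class I heavy chains H2-K1 and H2-D1, their light chain B2m, the peptide transporter subunit Tap1, the immunoproteasome subunits Psmb8 and Psmb9, the class II chains H2-Aa and H2-Ab1, the class II chaperone Cd74, and Cd274, which encodes PD-L1. All 10 passed the filter on low counts in every comparison below. For the 3 class II genes, cells with a UMI of Ptprc or Cd79a, which mark blood cells and B cells, were left out. A UMI is a tag that marks a single captured RNA molecule. Levels are given in CPM, a gene's UMIs scaled to 1000000 UMIs of the summed cells.

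Class I molecules carry peptides from inside the cell to CD8 T cells. The immunoproteasome cuts those peptides, TAP1 with its partner pumps them into the endoplasmic reticulum, and B2M joins the loaded heavy chain. Class II molecules show peptides to CD4 T cells, and CD74, the invariant chain, guards their groove and escorts them to endosomes. PD-L1 binds the inhibitory receptor PD-1 on T cells. Lymphatic endothelial cells of lymph nodes are known to carry PD-L1 and to tolerize CD8 T cells, and interferon raises most of these genes in many cell types.

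The endothelial cells were mouse, either wild type (WT) or Xbp1-KO, and every group had been given tamoxifen. For each genotype, peripheral and mesenteric lymph nodes were taken separately, which gave 4 pools told apart by hashtags, and both libraries held all 4. The labels name neither the Cre line nor the cells in which Xbp1 was deleted, nor the strain, age, sex or number of animals in a pool. Peripheral nodes were pooled, cells carrying CD45 were depleted and endothelial cells were sorted. Each group of tissue and genotype therefore had n = 2 pools, 1 per library. Whether the libraries, or the peripheral and mesenteric pools of a genotype within a library, come from separate animals is not stated, so p-values measure the spread between these pools, which may in part be technical.

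Library 1 held 33024170 gene UMIs and library 2 held 14744778, and 6648 and 2627 cells were kept. Kept cells of the libraries shared 2 barcodes. Xbp1 stood at 133 to 261 CPM in the WT pools and at 64.2 to 139 in the Xbp1-KO pools, lower in the knockout within each tissue and library. Xist stood at 567 to 983 CPM in the Xbp1-KO pools of library 1 and the WT pools of library 2 and at 0.214 to 5.32 in the other pools, where Ddx3y of the Y chromosome stood at 80.8 to 103. Within a library, genotype and the pools' Xist level therefore cannot be told apart. H2-D1 also stood apart between the libraries. In other blood endothelium H2-D1 was 2.06-fold higher in library 2, with higher values in 4 of 4 pools, and 0.724% of 9939 genes had a ratio at least as high. It was 1.47-fold higher in lymphatic and 2.23-fold in high endothelial-like cells, also in 4 of 4 pools each. Other class I genes moved with it in other blood cells, each in 4 of 4 pools: H2-Q4 was 2.79-fold higher (0.0906% of genes as high), H2-T23 1.81-fold, H2-M3 1.71-fold and H2-T22 1.67-fold. B2m was lower in library 2 in 4 of 4 pools of each class, at 0.783-fold of library 1 in other blood endothelium, where 10.4% of genes had a ratio at least as low.

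Clusters were formed without the genes of the antigen presentation lists, so none of the 10 genes helped to place a cell. Lymphatic endothelium comprised 3701 cells in 5 subsets, with Prox1 UMIs in 72.4% to 96.5% of the cells of a subset. High endothelial-like cells, the lining of the venules through which lymphocytes enter the node, formed 1 cluster of 538 cells. Other blood endothelium comprised 4778 cells in 7 subsets, with Prox1 UMIs in 0.789% to 3.49% of cells. The lymphatic subsets were floor-like cells with Coch, Ccl20 and Bmp2, Marco and Ptx3 cells, collecting-like cells with Nts and Pkhd1l1, and a cluster led by Ackr4. The blood subsets were Penk, Scgb3a1 and Fabp4 capillary-like cells, tip-like, venous-like and arterial-like cells, and a cluster led by Igfbp3, Scgb3a1 and Aqp1 that stayed unnamed and is called the Igfbp3/Aqp1 cluster. Scgb3a1 therefore leads both that cluster and the cells named for it. The 10 leading genes of the Scgb3a1 cells included the heat shock genes Hspa1a and Hspb1 and, ranked below them, the interferon-stimulated genes Rsad2 and Ifit3b.

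The promoters were searched for motifs of known control elements. RefSeq promoter windows on GRCm38.p6, from 250 bases before to 50 bases after the start, were found for 8 of the 10 genes. The stretches below cover the last 180 bases before the start and are shown because their genes diverge among endothelial subsets although several share an element. Capitals mark exact matches to 3 motifs searched on both strands, and no match overlaps that of another motif. They are a kappa-B site (the capitals of H2-K1), an interferon-stimulated response element (GAAA, 2 free bases and GAAA, the capitals of B2m) and the Y box of class II promoters (the capitals of H2-Aa, and their reverse complement in the second match of H2-D1).
H2-K1, chr17:34000348-34000527, minus strand: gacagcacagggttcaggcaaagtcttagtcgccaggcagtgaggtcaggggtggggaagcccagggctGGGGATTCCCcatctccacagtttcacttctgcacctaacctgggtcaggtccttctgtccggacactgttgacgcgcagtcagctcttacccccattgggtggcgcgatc
H2-D1, chr17:35262914-35263093, plus strand: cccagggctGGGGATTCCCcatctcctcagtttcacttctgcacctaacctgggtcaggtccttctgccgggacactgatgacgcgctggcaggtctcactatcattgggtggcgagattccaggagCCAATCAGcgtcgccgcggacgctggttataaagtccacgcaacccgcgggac
B2m, chr2:122147507-122147686, plus strand: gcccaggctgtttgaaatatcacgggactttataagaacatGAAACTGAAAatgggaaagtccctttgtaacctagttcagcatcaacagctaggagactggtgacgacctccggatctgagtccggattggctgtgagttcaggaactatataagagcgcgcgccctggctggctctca
Psmb9, chr17:34187331-34187510, minus strand: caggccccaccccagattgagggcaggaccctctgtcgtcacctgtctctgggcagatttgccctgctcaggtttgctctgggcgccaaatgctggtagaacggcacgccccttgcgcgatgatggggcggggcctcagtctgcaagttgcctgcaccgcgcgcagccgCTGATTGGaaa
H2-Aa, chr17:34287824-34288003, minus strand: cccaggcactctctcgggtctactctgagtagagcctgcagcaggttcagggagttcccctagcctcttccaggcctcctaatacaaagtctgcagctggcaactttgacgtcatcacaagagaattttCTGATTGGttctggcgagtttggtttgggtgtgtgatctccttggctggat
Cd274, chr19:29367258-29367437, plus strand: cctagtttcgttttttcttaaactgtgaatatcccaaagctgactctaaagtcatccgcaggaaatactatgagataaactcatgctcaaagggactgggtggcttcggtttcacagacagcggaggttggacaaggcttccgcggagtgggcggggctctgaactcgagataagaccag

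H2-K1 and H2-D1 carry the same kappa-B letters, which occur in 0.107% of the 32851 promoter windows in the table. Shifted by 60 bases, the 2 stretches match at 107 of 120 bases. H2-D1 and H2-Aa carry the Y box in the printed stretch, and H2-K1 carries it just after its start, outside that stretch. The Psmb9 Y box, close before its start, is also found in the window of Tap1, which is transcribed in the opposite direction from the same stretch. The Y box letters occur in 4.1% of windows. B2m holds a match to the interferon-stimulated response element, found in 3.44% of windows. Cd274 holds none of these letters in its window, and no more is drawn from that. Psmb8, not printed, holds a match to an interferon-gamma activation site, TTC and GAA with 3 free bases between them, which reads the same on both strands and occurs in 8.3% of windows.

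The class I chains were counted at high levels in every endothelial subset, and Marco, Ptx3 and floor-like lymphatic cells stood at the top for B2m and H2-K1. B2m (ENSMUSG00000060802, chromosome 2, 122147686 to 122153083, plus strand, GRCm38) averaged 6652 ± 1404 CPM in Marco cells (SD, n = 5 pools of at least 20 cells), 6622 ± 887 in Ptx3 cells (n = 7) and 6281 ± 1092 in floor-like cells (n = 7). It averaged 3453 ± 706 in collecting-like cells (n = 8), 2894 ± 530.4 in Fabp4 capillary-like cells (n = 8) and 2459 ± 354 in venous-like cells (n = 3). The highest subset stood 2.71-fold above the lowest. Each step between neighbours in the B2m order was smaller than the larger of the 2 SDs, so the order is graded.

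H2-K1 (ENSMUSG00000061232, chromosome 17, 33996017 to 34000347, minus strand) followed the same order at its top. Marco, Ptx3 and floor-like cells averaged 4649.6 ± 692, 4549.8 ± 586 and 4518 ± 656 CPM and did not differ beyond their spread. The next subset, high endothelial-like cells, averaged 3517 ± 792, and floor-like cells were higher in 7 of 7 pools that held both. Fabp4 capillary-like cells at 2052 ± 269 and venous-like cells at 1855 ± 288 were lowest. Lymphatic subsets therefore spanned most of the range of H2-K1, since collecting-like cells averaged 2851 ± 665.

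H2-D1 (ENSMUSG00000073411, chromosome 17, 35262730 to 35267499, plus strand) showed no step between neighbouring subsets beyond its spread. Some subsets farther apart did differ by more than the larger SD, such as floor-like cells at 3203 ± 660 CPM and the Ackr4 cluster at 2489 ± 672. The H2-D1 means ran from 1867 ± 903 in venous-like to 3274 ± 1255 CPM in the Igfbp3/Aqp1 cluster, a 1.75-fold range. The large SDs contain the library difference named above: in other blood endothelium the 4 pools of library 1 had 1740 to 2128 CPM and those of library 2 had 3696 to 4234. H2-D1 and H2-K1 belong to a family of similar class I genes, and how their similarity bears on the counts was not tested.

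The immunoproteasome subunits, which cut peptides, were ordered differently from H2-K1. Psmb8 (chromosome 17, 34197721 to 34201454) averaged 777 ± 144 CPM in Scgb3a1 capillary-like and 709 ± 123 in arterial-like cells, and 344 ± 40.6 in Ptx3 lymphatic cells, which were among the highest in H2-K1 and B2m. Psmb9 (chromosome 17, 34181987 to 34187764) was likewise highest in Scgb3a1 cells at 409.6 ± 75.7 and in the Igfbp3/Aqp1 cluster at 402 ± 51.8, and lowest in collecting-like cells at 168 ± 62.9. Tap1 (chromosome 17, 34187553 to 34197225) was highest in floor-like cells at 184 ± 41.4 and Marco cells at 172 ± 55.9, while Ptx3 cells, at 135 ± 23, came after the Igfbp3/Aqp1 cluster at 145 ± 31.7 and Scgb3a1 cells at 144 ± 51.8. It was 67.2 ± 23.4 in collecting-like cells. Scgb3a1 capillary-like cells had the highest mean of both immunoproteasome subunits, but by less than the SD, and above the Igfbp3/Aqp1 cluster in 3 of 8 pools for Psmb9.

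**Figure D1:**
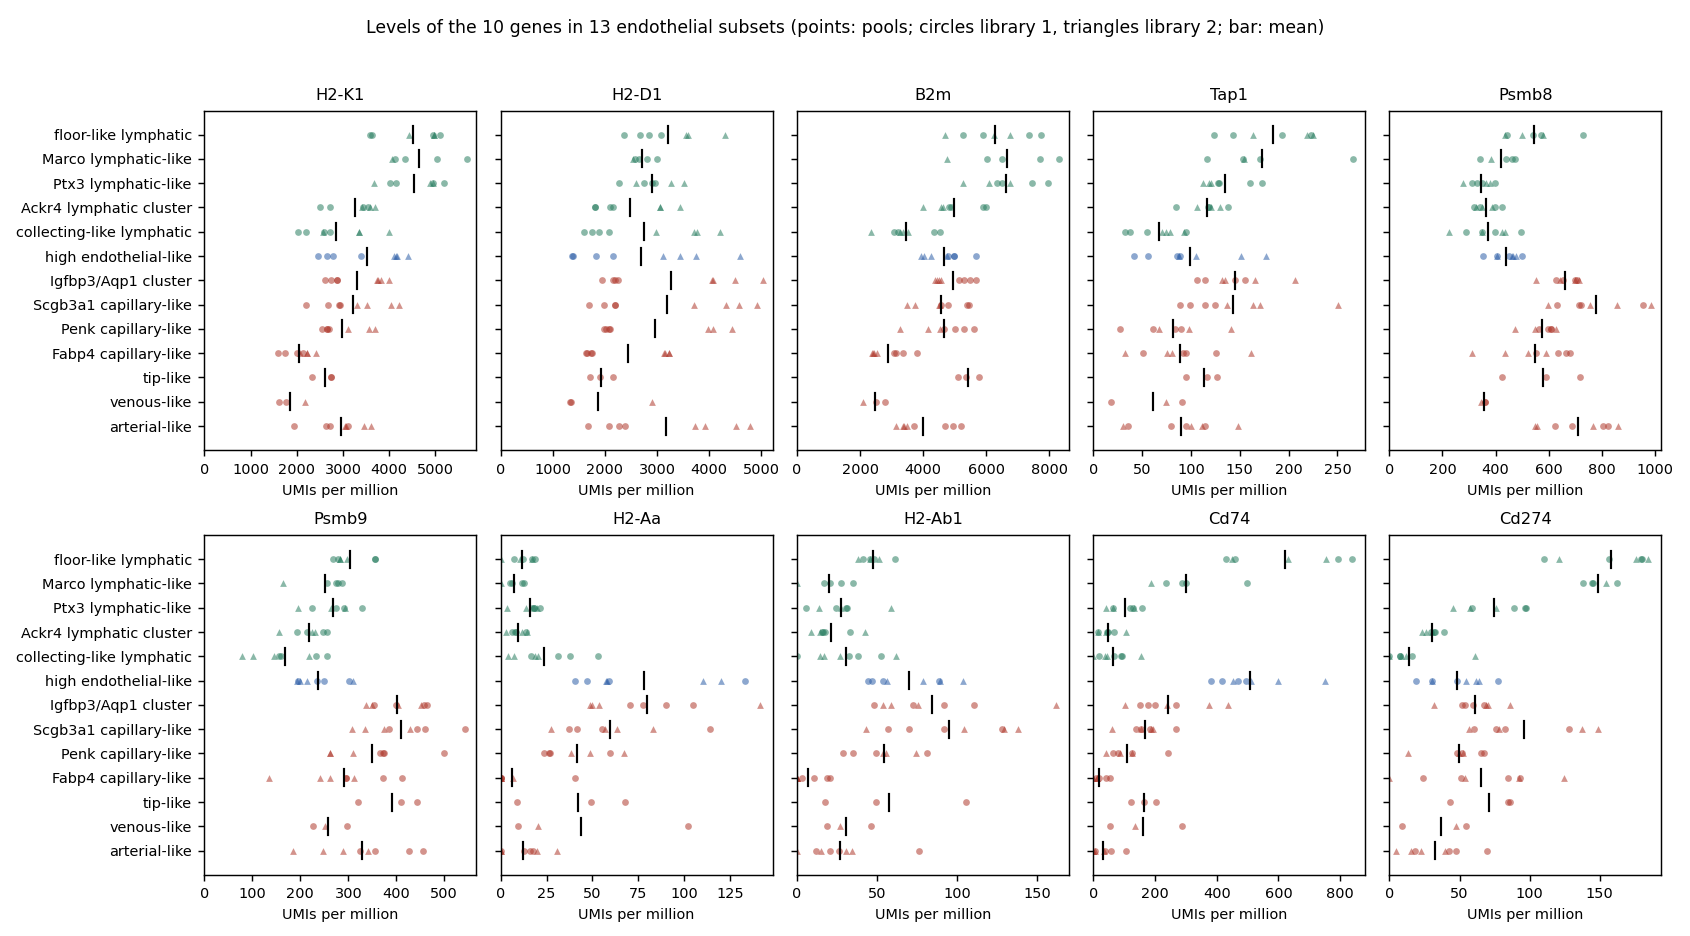
CPM of each gene (x axis, linear) in 13 endothelial subsets (y axis), with lymphatic subsets in green, high endothelial-like cells in blue and other blood subsets in red. Each point is a pool with at least 20 cells of the subset, circles from library 1 and triangles from library 2, and bars are means; Cd74 and Cd274 spread widely among lymphatic subsets, while H2-D1 splits by library.

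Cd74 was the member that varied most among subsets. Floor-like lymphatic cells held 622 ± 177 CPM of Cd74 (n = 7), high endothelial-like cells 509 ± 118 (n = 8), Marco cells 302 ± 118 (n = 5) and the Igfbp3/Aqp1 cluster 244 ± 113 (n = 8). The Ackr4 cluster held 48.4 ± 31.6, arterial-like cells 31.2 ± 37.8 and Fabp4 capillary-like cells 19.2 ± 19.9. Floor-like cells therefore stood 32.4-fold above the lowest endothelial subset. Floor-like and high endothelial-like cells did not differ beyond their spread. High endothelial-like cells stood above Marco cells by more than the larger SD, in 4 of 5 pools that held both. Marco cells, with the third highest mean of Cd74, had the second lowest of both class II chains. Over the blood subsets all 3 genes had higher means in the Igfbp3/Aqp1 cluster and Scgb3a1 cells than in Penk, arterial-like and Fabp4 cells, with the lowest mean in Fabp4 cells.

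H2-Aa (chromosome 17, 34282744 to 34287823), the class II alpha chain, was highest in the Igfbp3/Aqp1 cluster at 79.5 ± 31.8 CPM and in high endothelial-like cells at 78.1 ± 36.7. It was 11.8 ± 6.61 in floor-like and 7.12 ± 5.12 in Marco cells, both of which were high in Cd74. H2-Ab1 (chromosome 17, 34257689 to 34269419), the beta chain, was 95.2 ± 36.0 in Scgb3a1 capillary-like cells, 84.1 ± 37.5 in the Igfbp3/Aqp1 cluster, 47.3 ± 7.49 in floor-like and 19.9 ± 13.2 in Marco cells. Floor-like cells gave 4764 Cd74 UMIs for 96 of H2-Aa, a ratio of 49.6, and Marco cells a ratio of 39.2. The ratio was 8.73 in high endothelial-like cells, 2.76 in the Igfbp3/Aqp1 cluster and 2.72 in Scgb3a1 cells. The 42 cells of the B cell cluster, a class II-presenting type, gave 3.14. Per H2-Ab1 UMI the Cd74 ratios lay closer together, at 14 in floor-like, 13.1 in Marco and 7.80 in high endothelial-like cells and 3.50 in the B cell cluster. All 42 B cells were used here, with no cell left out for Ptprc or Cd79a. These ratios are compared among subsets only, since the 3′ assay may count genes with unequal efficiency.

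Cells with at least 1 Cd74 UMI made up 87.7% of 1257 floor-like cells (95% exact binomial interval 85.7% to 89.4%) and 64.9% of 527 high endothelial-like cells (60.7% to 69%). In 507 Fabp4 capillary-like cells the share was 3.35% (1.97% to 5.31%). Median depth was 5389 and 7175 UMIs in the first 2 and 1864 in the last. Cells with at least 2000 UMIs were then thinned to 2000, and shallower cells, most of the Fabp4 cells among them, were left out. The shares became 66.3%, 40.8% and 3.7%, the last on a smaller and deeper set of cells. H2-Aa was found in 5.65% of floor-like and 23.1% of high endothelial-like cells, and in 2.42% and 9.06% after thinning. The intervals cover counting error only. Stromal cells, 122 in all and mostly from library 1, held H2-Ab1 at 74.0 ± 68.2 CPM (n = 4 pools), H2-Aa at 22.2 ± 27.9 and Cd74 at 124 ± 116, with UMIs in 11.5%, 3.28% and 10.7% of cells. The H2-Ab1 mean of stromal cells was above that of floor-like cells and near that of high endothelial-like cells, and their H2-Aa mean was above those of floor-like and Marco cells. Each of these 3 stromal levels was 0 in at least 1 pool.

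Blood cells carry class II genes, so their markers were measured in the same cells. Cells with Ptprc or Cd79a UMIs were 13 of 3701 lymphatic, 7 of 4778 other blood and 11 of 538 high endothelial-like cells. Over the pools, the summed level of 6 T cell markers ran from 0 to 0.643 CPM in lymphatic, from 0 to 0.418 in other blood and was 0 in high endothelial-like cells. The sum of 6 B cell markers ran from 2.05 to 14.4, 0 to 3.17 and 0 to 2.67, and that of 6 macrophage markers from 0 to 13.3, 0.418 to 10.4 and 0 to 6.34. Floor-like cells held 68 UMIs of Igkc for their 4764 of Cd74, while the B cell cluster held 2837 of Igkc for 1132 of Cd74. The dendritic cell list was above these levels through Zbtb46, at 21.3 to 90.5 CPM in all subsets, while Itgax, Flt3 and Xcr1 were at 0 in other blood endothelium. The sum of the 5 dendritic markers ran from 59.3 to 82.0 in lymphatic, 48.9 to 67.8 in other blood and 22.5 to 37.2 in high endothelial-like cells, and that of 4 markers of other blood cells from 10.7 to 39.5, 0 to 3.76 and 0 to 40.0. Leaving out every cell with a UMI of any blood-cell marker (1427 lymphatic, 746 other blood and 189 high endothelial-like cells) kept the calls of Cd74, H2-Aa and H2-Ab1 between lymphatic and other blood cells given further on, each in the same direction. In high endothelial-like minus other blood cells it kept those of Cd74 and H2-Aa and ended that of H2-Ab1 (a log2 difference of 0.34, adjusted p = 0.269). Coro1a stood at 31.5 in floor-like, 27.4 in high endothelial-like and 27.2 in Marco cells.

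**Figure D2:**
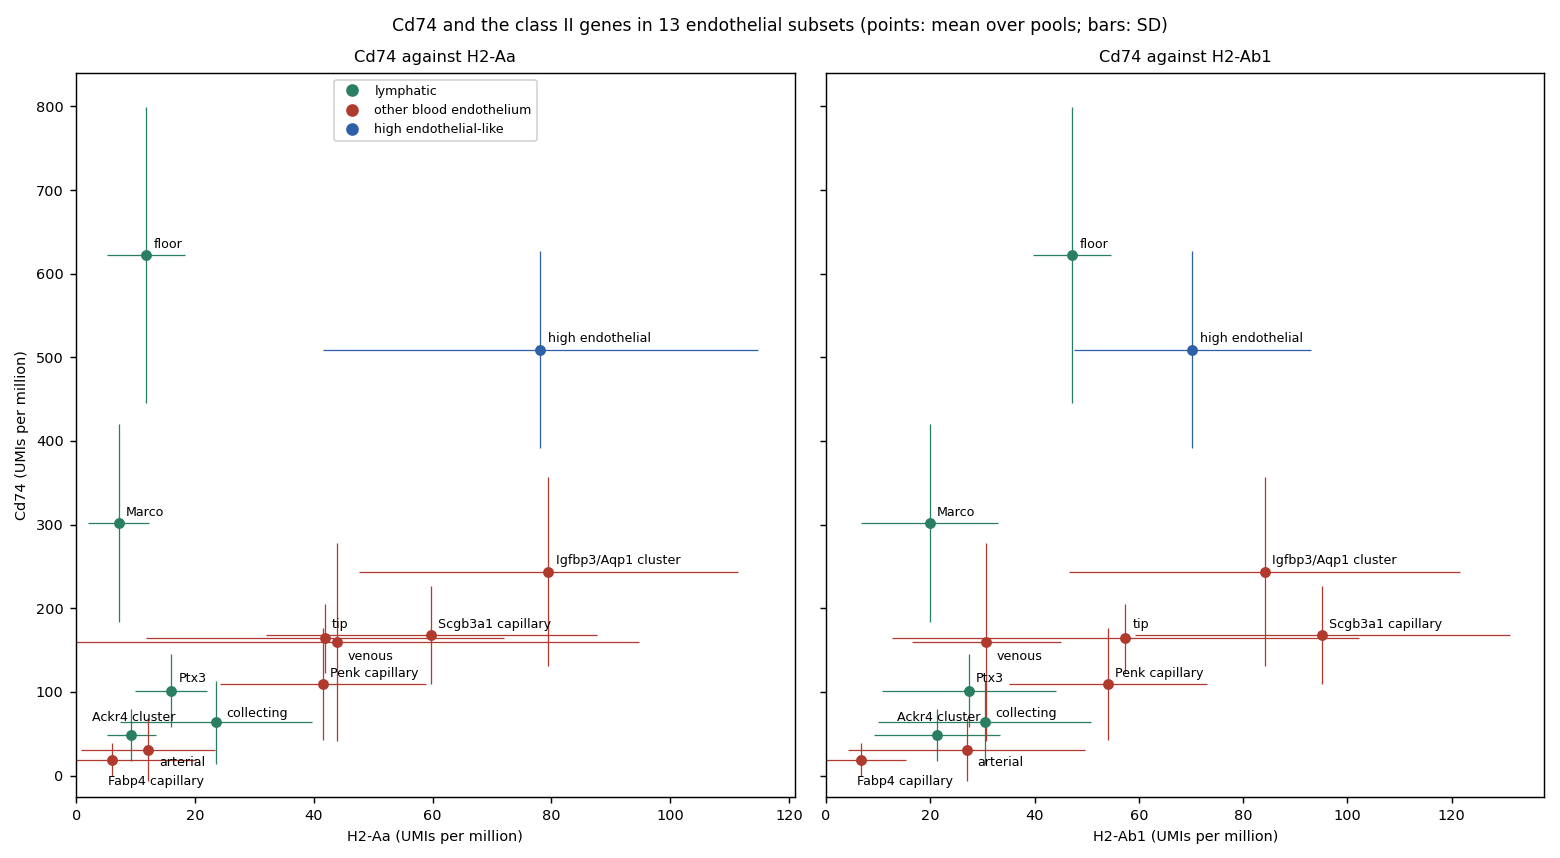
Mean CPM of Cd74 (y axis) against H2-Aa (left x axis) and H2-Ab1 (right x axis) in 13 endothelial subsets, with the SD over pools as bars. Floor-like cells sit at 622 for Cd74 with 11.8 for H2-Aa, while the Igfbp3/Aqp1 cluster sits at 244 with 79.5.

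Cd274 (chromosome 19, 29367455 to 29388095, plus strand) was concentrated in floor-like cells, at 158 ± 30.7 CPM (n = 7), and in Marco cells, at 149 ± 9.38 (n = 5). In floor-like cells the pools of library 1 had 156, 111, 180 and 180 and those of library 2 had 176, 185 and 121. Scgb3a1 capillary-like cells came next at 95.9 ± 36.3 and Ptx3 cells at 74.4 ± 20.9. Marco cells were higher than Scgb3a1 cells in 5 of 5 pools, by more than the larger SD. The Ackr4 cluster had 30.3 ± 5.12 and collecting-like cells 14.2 ± 19.8, and the Ackr4 cluster was higher in 7 of 7 pools although the step lay within the SD. Lymphatic subsets therefore held both ends of the Cd274 order, 11.2-fold apart.

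Cd274 UMIs were found in 48.8% of 1263 floor-like cells (exact interval 46% to 51.6%), 50% of 254 Marco cells (43.7% to 56.3%), 17.4% of 1173 Scgb3a1 cells and 3.5% of 514 collecting-like cells. Stromal cells gave 3 of 122 or 2.46% (0.51% to 7.02%), and the collecting-like share lay within that interval. Cells with fewer than 2000 UMIs were then left out and the others were thinned to 2000. The shares became 25%, 22%, 12.2%, 2.19% and 0.917%. Floor-like cells now came before Marco cells, and the order of the others held. Median depths were 5384, 6551.5, 2627, 3770.5 and 3917.5 UMIs before thinning.

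Other genes were ranked by how closely their levels followed a member over the 13 subsets. Among 8575 genes, those closest to Cd274 were Pcgf5 (Pearson r = 0.89), Zfp984, Trim30d, Nav3 and Rinl (0.88). Those closest to Cd74 were Sh2b2 (r = 0.91), Gnptab, Dsg2, Rdh10 and Syngr2 (0.87), and 4 of these 5 were highest in floor-like cells. H2-K1 was followed most closely by Mrpl38 (r = 0.94), Vrk2, H2-Q7, Tnpo2 and Il2rg (0.92), of which H2-Q7 is a class I gene itself. Subsets share libraries and depth, and the correlations are a description over 13 points.

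When counts were summed per class, lymphatic and other blood endothelium differed in 6 of the 10 genes, where 54.5% of all 10621 genes tested did (27.4% higher and 27.1% lower in lymphatic cells). Among cells without Ptprc or Cd79a UMIs, used for the class II genes, 54.3% of 10587 genes were called, 27.3% higher and 27% lower. Psmb8, Psmb9, H2-Aa and H2-Ab1 were lower in lymphatic cells and Cd74 and Cd274 were higher, by edgeR's quasi-likelihood test with Benjamini-Hochberg adjustment over all genes. The median log2 difference was -0.08 over the 10 genes and -0.01 over all genes. Cells were placed in classes by other genes of the same cells, so these tests compare clusters of 2 libraries.

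Cd74 ran from 218 to 366 CPM in the 8 lymphatic pools (median 251) and from 63.5 to 223 in the other blood pools (median 132). The ranges overlapped by their ends, and lymphatic cells were higher in 8 of 8 pools. The log2 difference was 0.78 ± 0.17 (SE, adjusted p = 0.000525). H2-Aa went the other way, with 6.01 to 18 in lymphatic pools against 29.3 to 75.3, which do not overlap. It was lower by a log2 difference of -2.14 ± 0.19 (adjusted p = 6.76e-10). H2-Ab1 differed by -1.07 ± 0.15 (adjusted p = 2.02e-06).

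Psmb8 stood at 372 to 515 CPM in lymphatic and 560 to 680 in other blood pools, also without overlap, and differed by -0.74 ± 0.09 (adjusted p = 1.96e-07). Psmb9 differed by -0.69 ± 0.11 (adjusted p = 8.53e-06). Cd274 stood at 64 to 111 in lymphatic pools and 44.6 to 75.6 in other blood pools, and differed by 0.34 ± 0.12 (adjusted p = 0.0229). Without library 1 the Cd274 difference was 0.22 (adjusted p = 0.25), and with sums thinned to the smallest it was 0.11 (adjusted p = 0.739). The Cd274 difference is that of a mixture, since the Ackr4 and collecting-like subsets had lower means than every blood subset. H2-K1 differed by 0.24 ± 0.12 (adjusted p = 0.11), or by 0.25 ± 0.08 (adjusted p = 0.0046) with the pool as a replicate block (60.2% of genes called), in 8 of 8 pools, and was called at 0.41 without library 2 (adjusted p = 2.09e-05) and at 0.32 with DESeq2 (adjusted p = 0.0227). B2m, Tap1 and H2-D1 were not called, though H2-D1 was lower without library 1, at -0.29 (adjusted p = 0.0176).

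High endothelial-like cells differed from other blood endothelium in 7 of the 10 genes, where 28.1% of genes did (11.3% higher and 16.8% lower), or 28% in the cells used for class II genes (11.2% higher and 16.8% lower). Cd74 stood at 382 to 752 CPM against 63.5 to 223, with no overlap, and differed by 2.16 ± 0.18 (adjusted p = 1.99e-09). H2-Aa differed by 0.85 ± 0.19 (adjusted p = 0.00125), but its pools overlapped and only 4 of 8 pairs were higher before TMM scaling. H2-K1 was higher in 7 of 8 pools, by 0.50 ± 0.12 (adjusted p = 0.00325), B2m by 0.38 ± 0.13 (adjusted p = 0.0323) and H2-Ab1 by 0.50 ± 0.18 (adjusted p = 0.0422). Psmb8 and Psmb9 were lower, by -0.26 ± 0.09 (adjusted p = 0.0385) and -0.33 ± 0.12 (adjusted p = 0.0371). Without library 1 the Psmb8 difference was -0.21 (adjusted p = 0.259) and that of Psmb9 -0.24 (0.24), and without library 2 that of H2-Ab1 was 0.27 (0.273). The H2-Ab1 call was also lost with the hashtag ratio rule (0.48, adjusted p = 0.0529), with sums thinned to the smallest (0.55, 0.195) and without blood-cell markers (above). That of Psmb8 was lost with DESeq2's size factors (-0.24, adjusted p = 0.0561), without the filter on low counts (-0.30, 0.0967) and with thinned sums (-0.27, 0.0973), and that of Psmb9 with DESeq2's size factors (-0.31, 0.0516) and thinned sums (-0.14, 0.542). The smallest of these differences also depend on scale. TMM, edgeR's scaling by trimmed means, shifted lymphatic cells by 0.20 and high endothelial-like cells by -0.27 on the log2 scale relative to other blood cells.

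Scaled to total UMIs alone, high endothelial-like cells differed by 0.24 in H2-K1 (adjusted p = 0.18), 0.09 in B2m (0.52) and 0.22 in H2-Ab1 (0.38), and none of the 3 was called. Lymphatic cells then differed by 0.44 in H2-K1 (adjusted p = 0.0086) and 0.32 in B2m (0.015), and both were called. H2-D1 changed sign under this scaling in both comparisons, and was called in neither. Under this scaling the calls of Cd74, H2-Aa, Psmb8 and Psmb9 held in both comparisons.

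**Figure D3:**
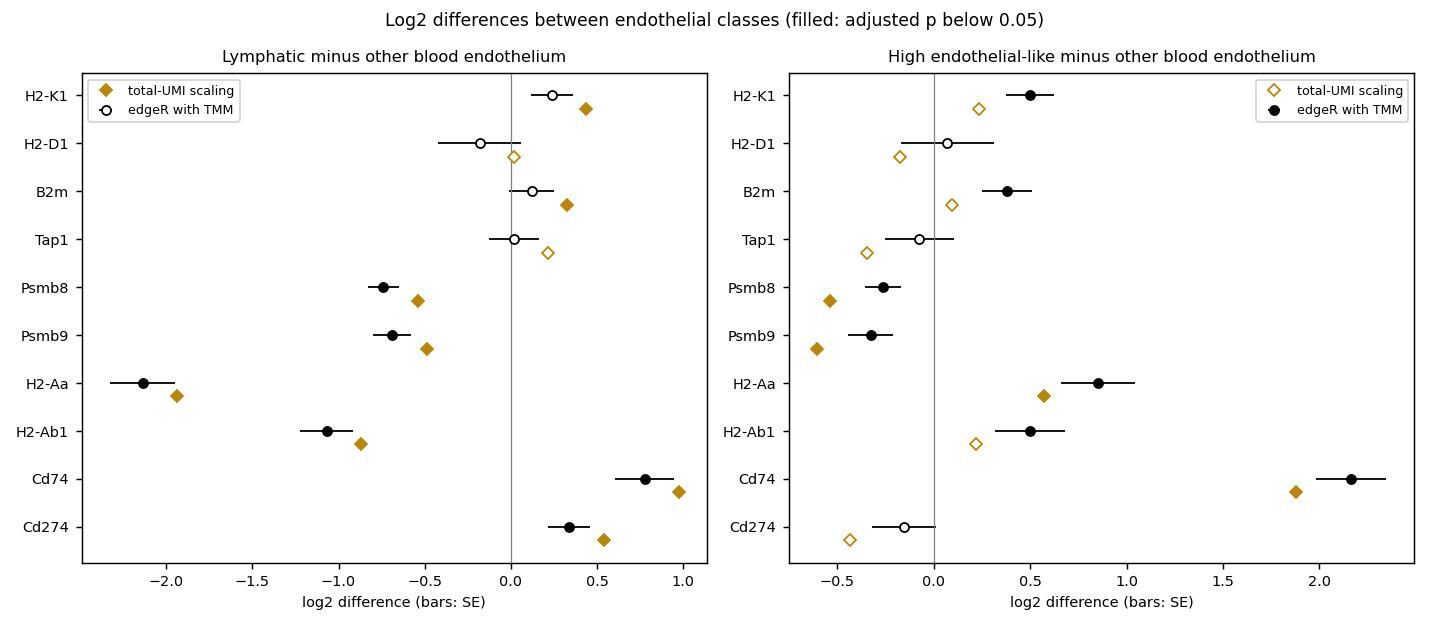
Log2 difference of each gene (x axis) between lymphatic (left) or high endothelial-like cells (right) and other blood endothelium, over 8 pools a class. Circles are edgeR values with TMM and their SE, diamonds are values scaled to total UMIs, and filled symbols have an adjusted p below 0.05; Cd74 lies right of 0 in both panels and Psmb8 and Psmb9 lie left.

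Other genes of the pathways were counted beside the 27.4% of all genes that were higher and the 27.1% that were lower in lymphatic than in other blood cells. Of 18 further class I pathway genes, all tested, 4 were higher, 5 lower and 9 not called, shares near those over all genes. Of 10 further class II pathway genes 6 were tested, with 2 higher and 3 lower. The largest differences were those of Irf8, a transcription factor downstream of interferon-gamma, at 3.40 ± 0.14, and of 2 lysosomal proteases of class II processing, Ctss at 3.10 ± 0.24 and Lgmn at 2.68 ± 0.13. Of 11 T cell co-signal ligands other than Cd274, 5 were tested, and 3 were higher, among them Vsir at 2.13 ± 0.12 and Nectin2 at 2.05 ± 0.11, and 2 were lower. Of 9 interferon-gamma signalling genes 4 were higher, 3 lower and 2 not called. All 5 named genes were higher in 8 of 8 pools, with adjusted p of 3.6e-16, 4.1e-11, 7.8e-15, 2.5e-13 and 1.1e-13.

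In high endothelial-like against other blood cells, where 11.3% of all genes were higher and 16.8% lower, 4 of 18 further class I genes were higher and 2 lower, and 3 of 6 tested class II genes were higher and none lower. Of the 5 tested co-signal ligands 2 were higher and 2 lower, and of the 9 interferon-gamma signalling genes 3 were higher and 3 lower. Ctss differed by 1.90 ± 0.40 (adjusted p = 0.00065) and H2-Eb1, another class II beta chain, by 1.14 ± 0.24 (adjusted p = 0.0006). Vsir was higher by 1.18 ± 0.16 (adjusted p = 2.3e-06), and Tapbpl, a peptide editor related to tapasin, was lower by -1.14 ± 0.23 (adjusted p = 0.00039). Cd40 was also called lower, from 3.48 CPM in other blood cells to 0.248, a level of few UMIs.

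Peripheral and mesenteric nodes were compared within each class. No member was called in any class without the library as a block, where 5%, 0.926% and 1.97% of genes were called in lymphatic, other blood and high endothelial-like cells (5.03%, 0.936% and 1.87% in the cells used for class II genes). No other gene of the pathway lists was called either. The pools of a library shared 1 droplet run, and with that block the shares were 13%, 5.03% and 3.34% (13.1%, 5.07% and 3.27%). B2m was then called in lymphatic cells, higher in peripheral nodes by 0.27 ± 0.06 (adjusted p = 0.0042, against 0.24 without the block), and in other blood cells, by 0.20 ± 0.04 (adjusted p = 0.011, against 0.92). It was higher in 4 of 4 pairs in both classes. With the block 5 further pathway genes were called. In lymphatic cells H2-Eb1 (0.85 ± 0.24, adjusted p = 0.0208) and Ctss (0.36 ± 0.12, 0.0463) were higher in peripheral nodes and Psme2, a subunit of a proteasome activator, was lower (-0.37 ± 0.09, 0.0057). In high endothelial-like cells H2-Q4 was higher (0.73 ± 0.18, 0.0376) and Calr, a chaperone of class I folding, was lower (-0.58 ± 0.14, 0.0372). In lymphatic cells without library 2, B2m was called at 0.28 (adjusted p = 0.0404), Tap1 at 0.53 (0.0273) and Cd74 at 0.57 (0.00148). Without library 1 none of these genes was called.

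How often ranges fail to overlap over all genes was not counted here. Tap1 stood in lymphatic cells at 177, 154, 143 and 150 CPM in peripheral pools and at 100, 126, 119 and 138 in mesenteric pools, without overlap. It was called with the block, at 0.33 ± 0.10 (adjusted p = 0.031, against 0.15). Psmb8 in lymphatic cells was lower in peripheral nodes in 4 of 4 pairs, at -0.30 ± 0.10 (adjusted p = 0.042 with the block, 0.16 without). H2-Aa in high endothelial-like cells stood at 133, 58.8, 110 and 120 in peripheral and 40.4, 46.8, 57.6 and 58.1 in mesenteric pools. Its difference was 0.93 ± 0.25 (adjusted p = 0.073) and 0.94 ± 0.23 with the block (adjusted p = 0.034), or 1.54 with sums thinned to the smallest (adjusted p = 0.0452), and each peripheral pool rested on 16 to 22 UMIs.

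Cd274 in other blood cells stood at 75.6, 60.6, 71.5 and 69.5 CPM in peripheral pools and at 55.6, 53.1, 60.4 and 44.6 in mesenteric pools. The ranges do not overlap, but how often that holds over all genes was not counted. The difference of 0.38 ± 0.13 was not called (adjusted p = 0.33, or 0.051 with the block), though it was at 0.40 with the block and a library-by-genotype term (adjusted p = 0.0318). The same direction was seen in Scgb3a1 and Fabp4 capillary-like cells in 4 of 4 pairs each and in high endothelial-like cells in 4 of 4 pairs. A pair went the other way in each of 3 further blood subsets, while their remaining pairs were higher in peripheral nodes. Peripheral against mesenteric, these were the Igfbp3/Aqp1 cluster (70.4 against 86.0, WT of library 2), Penk cells (51.9 against 67.5, Xbp1-KO of library 1) and arterial-like cells (15.4 against 39.6, WT of library 2). Cd74 in floor-like lymphatic cells stood at 839, 794, 755 and 632 in peripheral pools and at 429, 458 and 450 in mesenteric pools, with no overlap. Over all lymphatic cells its difference was 0.34 ± 0.15 (adjusted p = 0.21, or 0.053 with the block), and was called at 0.35 with the block and that term (adjusted p = 0.0281). The make-up of the classes moved with tissue: Penk cells were 29.6% to 43.6% of other blood cells in peripheral pools and 4.98% to 7.92% in mesenteric pools, and Scgb3a1 cells 11% to 14.4% and 27.4% to 57%. Among lymphatic cells the Ackr4 cluster was 26.6% to 41.1% in peripheral pools and 14.3% to 21.2% in mesenteric pools, Marco cells 1.66% to 6.18% and 7.81% to 17.3%, and Ptx3 cells 18.2% to 21.1% and 6.25% to 16.8%. The part of this make-up in the class values was not tested.

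**Figure D4:**
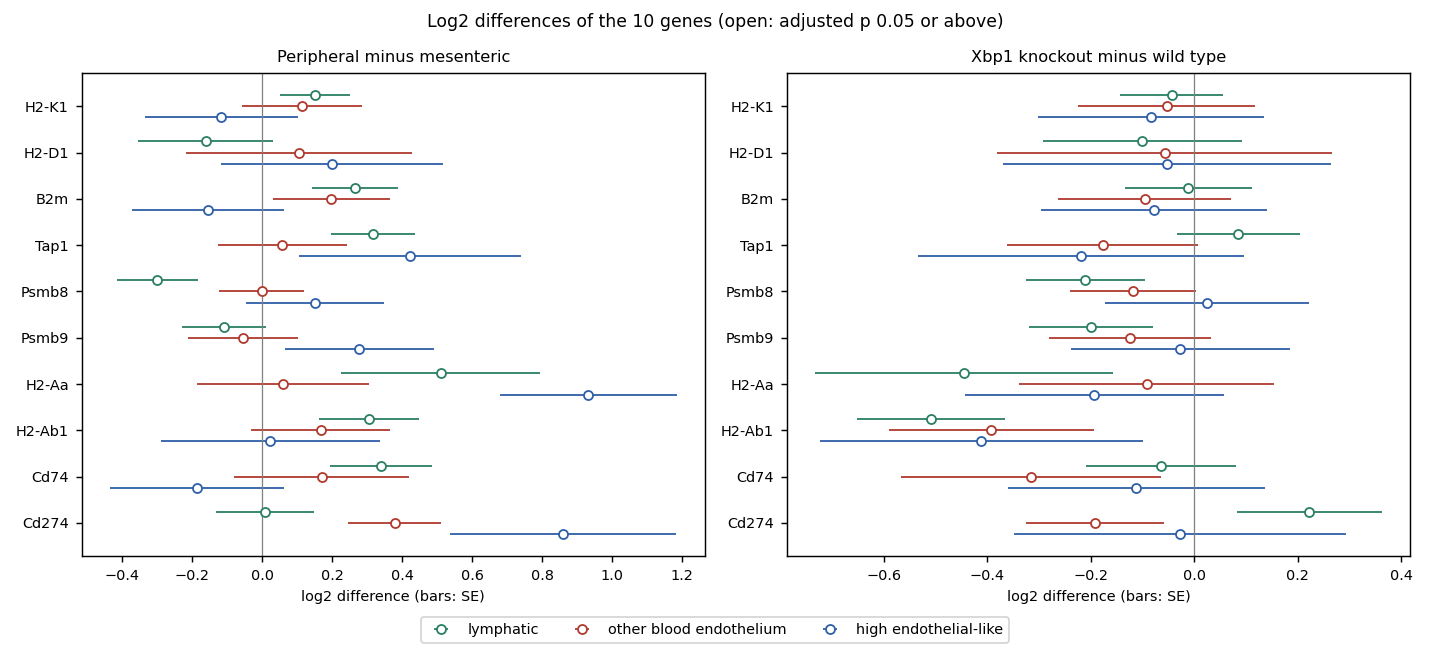
Log2 difference with SE of each gene between peripheral and mesenteric nodes (left) and between Xbp1-KO and WT (right), by class, from edgeR without a block, over 4 pools a side. All symbols are open since no difference reached an adjusted p below 0.05; the H2-Aa difference of 0.93 in high endothelial-like cells lies farthest right.

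Xbp1-KO and WT pools gave no called member in any class. edgeR called 0% of genes, that is 0 of 10670, 9939 and 6382, in lymphatic, other blood and high endothelial-like cells, with 646, 249 and 180 at an unadjusted p under 0.05. DESeq2 called 11, 3 and 0 genes and none of the 10, of which Tap1, H2-Aa, H2-Ab1 and Cd274 had no adjusted p in lymphatic cells. With the library as a block edgeR called 0.918%, 0.181% and 0% of genes (0.855%, 0.191% and 0% in the cells used for class II genes) and again no member. No other gene of the pathway lists was called without the block, and with it Socs1, an inhibitor of interferon signalling, was higher in lymphatic cells of Xbp1-KO pools (0.63 ± 0.12, adjusted p = 0.0123, in 3 of 4 pairs).

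Cd274 in lymphatic cells stood in library 1 at 92.4 and 83 CPM in WT peripheral and mesenteric pools and at 106 and 111 in the Xbp1-KO pools, and in library 2 at 73.7 and 64 against 88.5 and 81.1. It was higher in the knockout in 4 of 4 pairs, yet the difference of 0.22 ± 0.14 was not called (adjusted p = 0.84, or 0.32 with the block). H2-Ab1 in lymphatic cells was lower in 4 of 4 pairs, at 27.9 ± 6.20 against 37.5 ± 5.17 CPM. Its difference of -0.51 ± 0.14 was not called either (adjusted p = 0.51). In other blood cells all 10 differences were negative, with a median of -0.12 against 0.005 over all genes, and none was called. The share of all genes with a negative difference was not counted. Of 18 further class I pathway genes only 2 were positive. The genes share their pools, so these directions are not independent. H2-K1, H2-Aa, H2-Ab1 and Cd74 changed sign with 1 library left out. The pools of Psmb8 did not overlap, at 605 ± 30.6 against 670 ± 19.0, though overlap was not counted over all genes. Interactions of genotype with tissue were called for 0% of genes, or 0 genes, by edgeR in lymphatic and other blood cells, with 310 and 181 at an unadjusted p under 0.05 and 2 and 0 called by DESeq2. edgeR called none of the 10 genes. With the block it called 0.141% of genes in lymphatic cells, none of the 10 among them, and Socs1, whose knockout difference was lower in peripheral than in mesenteric pools (-1.19 ± 0.24, adjusted p = 0.0439).

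Cd74 in blood vessels differed between genotypes in opposite directions in the 2 libraries. In other blood endothelium of library 1 it went from 124 and 122 CPM in the WT peripheral and mesenteric pools to 173 and 137 in the Xbp1-KO pools. In library 2 it went from 165 and 223 in WT to 126 and 63.5 in Xbp1-KO pools. In high endothelial-like cells the same pairs were 419 and 382 against 468 and 494 in library 1, and 599 and 752 against 452 and 510 in library 2. The knockout pools were above their WT pools in library 1 and below them in library 2 in both classes and both tissues.

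The genotype difference of library 1 minus that of library 2 was 1.33 ± 0.20 on the log2 scale for Cd74 in other blood cells (adjusted p = 0.00221), where 0.725% of 9936 genes were called (0.775% in all cells). It was 1.16 ± 0.24 in high endothelial-like cells (adjusted p = 0.0175), where 0.911% were (0.783% in all cells), and -0.04 ± 0.21 in lymphatic cells (adjusted p = 0.999), where 0.169% were. Taken without library 1, the Cd74 difference between genotypes in other blood cells was -1.04 (adjusted p = 0.00739), and without library 2 it was 0.34 (adjusted p = 0.582). The replicates behind this test are the peripheral and mesenteric pools of a library and genotype, which shared their Xist and Ddx3y pattern and may come from the same animals. Its difference between classes was not tested. In high endothelial-like cells the call was lost with scaling to total UMIs (adjusted p = 0.12), with all cells (0.075) and with DESeq2 (0.34). H2-Aa and H2-Ab1 in other blood cells gave 1.18 ± 0.28 (adjusted p = 0.068) and 0.85 ± 0.26 (0.26), and H2-Aa was called at 1.13 without the filter on low counts (adjusted p = 0.00391). The pools with the higher Cd74 were those with high Xist in each of these pairs. The library-by-genotype term is the same comparison as pools with high against pools with low Xist, so the 2 cannot be told apart. Summed B cell markers were at most 3.17 CPM in these other blood pools and T cell markers at most 0.418.

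**Figure D5:**
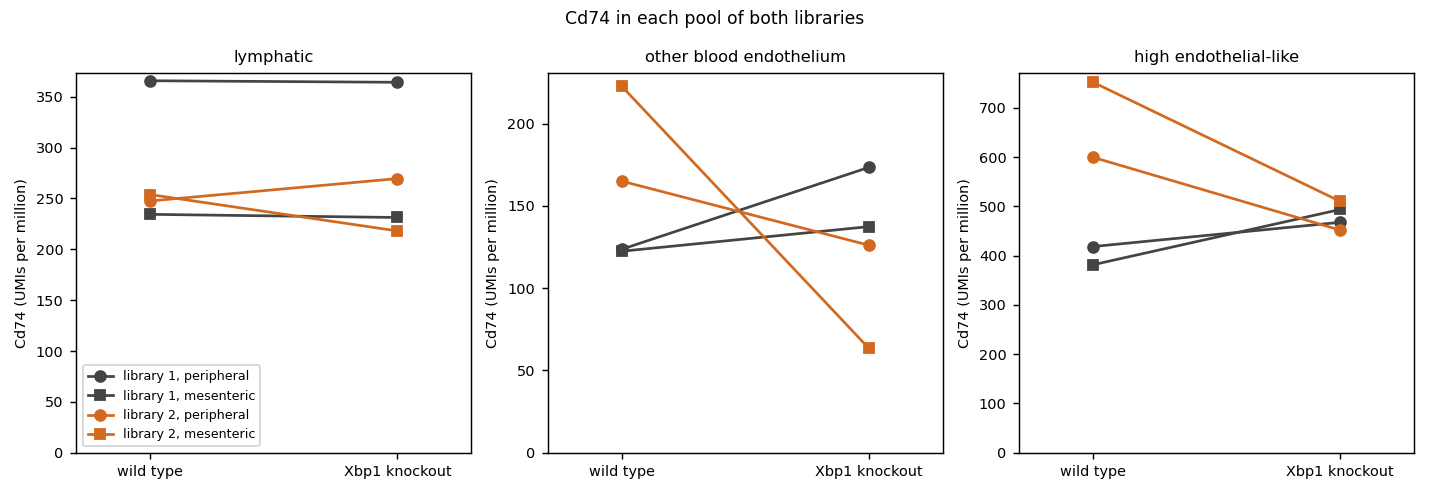
Cd74 in CPM (y axis, from 0) in WT and Xbp1-KO pools (x axis) of each class, with a line for each library and tissue. In other blood and high endothelial-like cells the lines of library 1 go up and those of library 2 go down; in lymphatic cells they are nearly level or go either way.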

How the data were processed

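The authors deposited raw UMI counts of genes in cell barcodes. Per the file headers these came from Cell Ranger 6.0.1, while the submitters' processing notes name version 6.1 and the mm10 build. The kit chemistry is given as both version 2 and version 3 in the labels. Hashtags were called with HTODemux in Seurat 5.3.0. Kept cells had a single tag, 500 or more genes and a mitochondrial share of UMIs up to 10%, and Scrublet removed 65 and 4 further cells, though it marked only 25.5% and 4.62% of barcodes with several tags. Clustering in scanpy 1.11.5 used 1985 variable genes, 30 principal components and Leiden resolution 1. For each class, UMIs were added up over the cells of a pool in a library, with 64 to 1294 lymphatic, 236 to 1067 other blood and 20 to 130 high endothelial-like cells a sum, and tested with edgeR 4.0.16 (TMM, filterByExpr, quasi-likelihood). DESeq2 1.42.0, other scalings and filters, a hashtag ratio rule and leaving out each library were tried. The fits were also run on simulated data, whose outcome is not given and not used here. Levels are CPM of a sum. The share of all genes whose ranges do not overlap between groups was not counted. Subset levels used pools with at least 20 cells. Members, lists and tests were chosen with earlier results of these data known. Named pathway genes are the 5 largest called differences per comparison. The scaling to total UMIs and the reading of the library-by-genotype term were added after values were seen. The labels of both libraries list all 4 pools in each library, which is the pairing behind the block. Deviations of same-library pools correlated by 0.0552 to 0.228 in lymphatic, 0.161 to 0.424 in other blood and 0.00113 to 0.274 in high endothelial-like cells. Dividing cells (64) and stromal and blood-cell clusters (194 cells) were left out of the class sums.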

Additional observations from a re-analysis of the deposited data

Results flagged for a closer look

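Cd74 drew attention because its genotype difference was not the same in the 2 libraries. Pools with high Xist were Xbp1-KO in library 1 and WT in library 2, so this cannot be told apart from a difference by Xist level. The difference of library 1 minus that of library 2 was 1.33 on the log2 scale in other blood endothelium and 1.16 in high endothelial-like cells, each by a test of the difference itself in edgeR. The second was not called with scaling to total UMIs (adjusted p = 0.124), with all cells (0.075) or with DESeq2 (0.343). Within subsets, the Xbp1-KO pools of library 1 and the WT pools of library 2 were set against their partners. Cd74 was higher in them in 4 of 4 pairs of high endothelial-like cells, which are 1 subset and repeat the class values. It was higher in 3 of 4 pairs of the Igfbp3/Aqp1 cluster, 3 of 4 of Scgb3a1 cells and 1 of 4 of arterial-like cells. Pairs of Penk and Fabp4 capillary-like cells went either way.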

How the results depend on the processing

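Library 2 held fewer cells and fewer UMIs in all, though more per barcode (median 4319 against 3655), and high endothelial-like sums held as few as 20 cells. Calls of the 10 genes that changed with the block, or with the block and a library-by-genotype term, stand beside their results; neither changed another call of these genes. At Leiden resolution 0.6 no cluster of their own was formed by Marco, Scgb3a1 capillary-like, tip-like or venous-like cells, so that the third place of Scgb3a1 cells in Cd274 has no counterpart there and the next level is that of the cluster led by Mrc1 (74.5 ± 20.9). The cluster led by Ccl20 and Coch stayed highest in Cd74 (557 ± 169 CPM) and Cd274 (148 ± 32.6), and the highest means of Psmb8 and Psmb9 moved to the cluster led by Stmn2 (715 ± 124) and that led by Igfbp3 (411 ± 42.2), that of H2-D1 to the cluster led by Ccl20 (3395 ± 871) and that of H2-Ab1 to the one led by Igfbp3 (90.3 ± 43.0).

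Counts of called genes moved with the processing, and the cause was not tested. For genotype in lymphatic cells, 0 genes were called, against 98 with the library as replicate block, 182 with that block and a library-by-genotype term, 70 with no filter on low counts, 11 with DESeq2, 1 with sums thinned to the smallest and 20 to 31 with 1 library left out. For genotype in other blood cells, 0 genes were called, against 18 with the library as replicate block, 63 with that block and a library-by-genotype term, 28 with no filter on low counts, 3 with DESeq2 and 23 to 47 with 1 library left out. For genotype in high endothelial-like cells, 0 genes were called, against 1 with no filter on low counts and 35 to 64 with 1 library left out. For tissue in lymphatic cells, 534 genes were called, against 1387 with the library as replicate block, 1368 with that block and a library-by-genotype term, 880 with no filter on low counts, 351 with DESeq2, 194 with sums thinned to the smallest and 208 to 786 with 1 library left out. For tissue in other blood cells, 92 genes were called, against 500 with the library as replicate block, 728 with that block and a library-by-genotype term, 328 with no filter on low counts, 61 with sums thinned to the smallest and 108 to 259 with 1 library left out. For tissue in high endothelial-like cells, 126 genes were called, against 213 with the library as replicate block, 342 with that block and a library-by-genotype term, 279 with no filter on low counts, 76 with sums thinned to the smallest and 178 to 201 with 1 library left out. For lymphatic minus other blood, 5789 genes were called, against 1712 with sums thinned to the smallest and 3762 to 5761 with 1 library left out. For high endothelial-like minus other blood, 2987 genes were called, against 1245 with sums thinned to the smallest and 1846 to 2591 with 1 library left out. For genotype by tissue in lymphatic cells, 0 genes were called, against 15 with the library as replicate block, 29 with that block and a library-by-genotype term, 25 with no filter on low counts and 2 with DESeq2. For genotype by tissue in other blood cells, 0 genes were called, against 2 with the library as replicate block, 52 with that block and a library-by-genotype term and 12 with no filter on low counts. For library by genotype in lymphatic cells, 18 genes were called, against 41 with no filter on low counts and 10 with DESeq2. For library by genotype in other blood cells, 77 genes were called, against 173 with no filter on low counts and 19 with DESeq2. For library by genotype in high endothelial-like cells, 50 genes were called, against 150 with scaling to total UMIs, 98 with no filter on low counts and 8 with DESeq2.

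Of the 10 genes' log2 differences, 703 values under other settings kept direction and side of the threshold, 26 reversed, 19 passed it only then and 15 no longer passed. With scaling to total UMIs, B2m was 0.018, not -0.011 (genotype in lymphatic cells), Psmb8 was -0.018, not 0.025 (genotype in high endothelial-like cells), Psmb8 was 0.0091, not -0.0013 (tissue in other blood cells), H2-D1 was 0.016, not -0.18 (lymphatic minus other blood), H2-D1 was -0.18, not 0.070 (high endothelial-like minus other blood), Psmb8 was 0.034, not -0.027 (library by genotype in other blood cells), Cd274 was 0.0031, not -0.058 (library by genotype in other blood cells), H2-K1 was -0.31, not 0.071 (library by genotype in high endothelial-like cells), Psmb8 was -0.33, not 0.042 (library by genotype in high endothelial-like cells), H2-Aa was -0.36, not 0.0036 (library by genotype in high endothelial-like cells). With sums thinned to the smallest, B2m was 0.041, not -0.011 (genotype in lymphatic cells), H2-Aa was 0.53, not -0.19 (genotype in high endothelial-like cells), Tap1 was 0.018, not -0.074 (high endothelial-like minus other blood). With cells without any blood-cell marker, H2-Ab1 was 0.094, not -0.41 (genotype in high endothelial-like cells), Cd74 was 0.26, not -0.11 (genotype in high endothelial-like cells), H2-Ab1 was -0.0037, not 0.023 (tissue in high endothelial-like cells). With that block and a library-by-genotype term, Psmb8 was 0.0019, not -0.0013 (tissue in other blood cells). With DESeq2's size factors in edgeR, Psmb8 was 0.00052, not -0.0013 (tissue in other blood cells). With DESeq2, Psmb8 was 0.0012, not -0.0013 (tissue in other blood cells), H2-Aa was -0.085, not 0.0036 (library by genotype in high endothelial-like cells). With the hashtag ratio rule, Psmb8 was 0.00076, not -0.0013 (tissue in other blood cells). With no filter on low counts, H2-Ab1 was -0.058, not 0.023 (tissue in high endothelial-like cells), H2-K1 was -0.025, not 0.022 (library by genotype in lymphatic cells), Psmb9 was -0.020, not 0.022 (library by genotype in lymphatic cells). With all cells, H2-Ab1 was -0.0010, not 0.023 (tissue in high endothelial-like cells), H2-Aa was -0.13, not 0.0036 (library by genotype in high endothelial-like cells). With 1 library left out, 125 kept both, 25 reversed, 6 passed only then and 4 no longer passed. The reversed genes ran for genotype in lymphatic cells, H2-D1 from -0.15 to 0.023, B2m from -0.069 to 0.087, Tap1 from -0.073 to 0.12; for genotype in other blood cells, H2-K1 from -0.16 to 0.026, H2-Aa from -0.75 to 0.43, H2-Ab1 from -0.83 to 0.0062, Cd74 from -1.04 to 0.34; for genotype in high endothelial-like cells, H2-D1 from -0.27 to 0.078, B2m from -0.32 to 0.13, Tap1 from -0.71 to 0.12, Psmb9 from -0.13 to 0.020, H2-Ab1 from -0.57 to 0.062, Cd74 from -0.63 to 0.53, Cd274 from -0.45 to 0.50; for tissue in lymphatic cells, H2-D1 from -0.29 to 0.085, Cd274 from -0.016 to 0.098; for tissue in other blood cells, Tap1 from -0.071 to 0.20, Psmb8 from -0.014 to 0.010, H2-Aa from -0.25 to 0.26, H2-Ab1 from -0.030 to 0.36; for tissue in high endothelial-like cells, Psmb8 from -0.042 to 0.27, H2-Ab1 from -0.44 to 0.46; for lymphatic minus other blood, H2-D1 from -0.29 to 0.11, Tap1 from -0.12 to 0.21; for high endothelial-like minus other blood, Tap1 from -0.28 to 0.12. Leaving out a library could not be fitted for genotype by tissue or library by genotype.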
